A study of Homo sapiens with 6 samples.

Results

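The genes described here were 10 genes of the contractile and mesenchymal cytoskeleton, namely ACTA2, TAGLN, TPM1, TPM2, MYL9, CNN1, CALD1, VIM, ACTN1 and FLNA, out of 20033 protein-coding genes annotated on chromosomes 1 to 22, X and Y. They were chosen by name, and a peak was assigned to a gene when its summit, the base of highest read pileup, lay in the GENCODE gene on hg38 or within 20 kb of either end. The study mapped 3 factors by ChIP-seq in 786-O, a human renal cell carcinoma line, with 2 libraries each for DPF3a, SMAD4 and p300 and 6 in all. DPF3a was precipitated through its HA tag from cells overexpressing HA-tagged DPF3a, which were fixed with DSG, a protein crosslinker, followed by formaldehyde. SMAD4 and p300 were precipitated with antibodies against the endogenous proteins from cells fixed with formaldehyde alone, and the labels do not say whether these cells carried the DPF3a construct. The labels name no agent added to the cells of any group, and the level of DPF3a in the overexpressing cells is not that of the parental line.

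DPF3a is a subunit of the BAF chromatin remodelling complex, SMAD4 is the common partner of the receptor-activated SMADs in TGF-β signalling, and p300 is a histone acetyltransferase that acts as a coactivator. Smooth muscle actin, its motor light chain and the thin-filament proteins form the contractile apparatus of smooth muscle and of myofibroblasts, where SRF, the factor that binds the CArG box, drives many of their genes and TGF-β raises them. Vimentin, the intermediate filament protein of mesenchymal cells, and the actin crosslinkers are widely made in cultured and migrating cells. The measurements here were of binding, and no RNA of these genes was analysed here.

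The 3 peak lists held 51530 DPF3a, 46367 SMAD4 and 20380 p300 peaks, each list made by the authors from both libraries of a factor, so the spread between replicates could not be measured and no test was made. The depth recovered from the genome-wide background was 15.8 M reads in the DPF3a list, 30.4 M in the SMAD4 list and 27.6 M in the p300 list, assuming fragments of 200 bp and a genome of 2.7 Gb. Antibody, fixation and depth differed between the lists and cannot be told apart, so fold enrichment, the ratio of summit pileup to local background, was read within a list only. Intervals on counts and shares cover counting error alone, and peaks at the same gene are not independent of each other.

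Sequences at shared sites are shown first, since several of the summits and motifs described later lie in them. For each gene that had one, the site of all 3 factors with the highest DPF3a fold was taken, and for TPM2 and ACTN1, which had no such site, the site shared by DPF3a and SMAD4 with the highest DPF3a fold. Each is read 5′ to 3′ on the plus strand of hg38, covers 75 bp on either side of the DPF3a summit unless said otherwise, and has in capitals the exact matches to the motifs searched. The ACTA2 site lies at chr10:88979307-88979457, the TPM2 site at chr9:35688787-35688937, the CNN1 site at chr19:11568330-11568480 and the ACTN1 site at chr14:68941998-68942148, and none of them touched an annotated exon.
ACTA2: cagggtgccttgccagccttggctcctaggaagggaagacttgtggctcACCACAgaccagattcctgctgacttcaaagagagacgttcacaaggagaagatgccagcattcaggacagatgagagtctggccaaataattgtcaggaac
TPM2: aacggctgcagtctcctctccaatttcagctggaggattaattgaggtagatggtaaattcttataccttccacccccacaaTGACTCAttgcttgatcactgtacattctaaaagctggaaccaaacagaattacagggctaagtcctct
CNN1: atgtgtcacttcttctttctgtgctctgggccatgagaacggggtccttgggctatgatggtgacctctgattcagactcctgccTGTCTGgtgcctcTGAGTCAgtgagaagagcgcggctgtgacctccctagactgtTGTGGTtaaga
ACTN1: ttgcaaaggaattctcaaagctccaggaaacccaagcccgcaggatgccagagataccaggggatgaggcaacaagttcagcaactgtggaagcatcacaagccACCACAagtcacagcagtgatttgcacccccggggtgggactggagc

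At VIM and CALD1 the window touched an untranslated exon, so only 30 bases around the match nearest the summit are given, at chr10:17228514-17228543 for VIM and at chr7:134986709-134986738 for CALD1. At TPM1 the window of the site of all 3 factors with the higher DPF3a fold also touched an untranslated exon and held no match, and it is not shown.
VIM: agcagggcgcggTGAGTCAccgccggtgac
CALD1: gaagtaaggcggGGCGCCccctgcgggaag

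The CArG box (CC, then 6 bases that are each A or T, then GG) was found at SMAD4 summits in the promoters of TPM2 and FLNA. These windows lie at chr9:35690847-35690997 and chrX:154374657-154374807, upstream of both genes, and are centred on the SMAD4 summit.
TPM2 promoter: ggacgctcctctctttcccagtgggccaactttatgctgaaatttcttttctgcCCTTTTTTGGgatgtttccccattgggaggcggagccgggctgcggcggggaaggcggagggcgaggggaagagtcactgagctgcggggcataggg
FLNA promoter: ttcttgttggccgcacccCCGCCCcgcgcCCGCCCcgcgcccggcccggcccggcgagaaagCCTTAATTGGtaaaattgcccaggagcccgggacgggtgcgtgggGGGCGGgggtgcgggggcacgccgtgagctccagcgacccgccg

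A DPF3a summit was found at 8 of the 10 genes, a SMAD4 summit at 9 and a p300 summit at 7. Of all protein-coding genes 79.0% had a DPF3a summit, 81.3% a SMAD4 summit and 64.7% a p300 summit in such a window, so the counts were near the background. The 10 windows together held 34 DPF3a, 43 SMAD4 and 18 p300 summits. The median gene of the group held 3.5 DPF3a, 4.5 SMAD4 and 2 p300 summits, against 2, 2 and 1 over all protein-coding genes. Per 100 kb of window, DPF3a had a median of 3.80 summits against 2.36 over all genes, SMAD4 one of 5.98 against 2.47 and p300 one of 1.80 against 1.19. Window length moved with the share of genes that held a summit: in the shortest quartile of windows, where TAGLN, TPM2 and VIM lie, 61.9% of all genes held a DPF3a summit, against 90.9% in the longest, where CALD1 and ACTN1 lie.

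**Figure D1:**
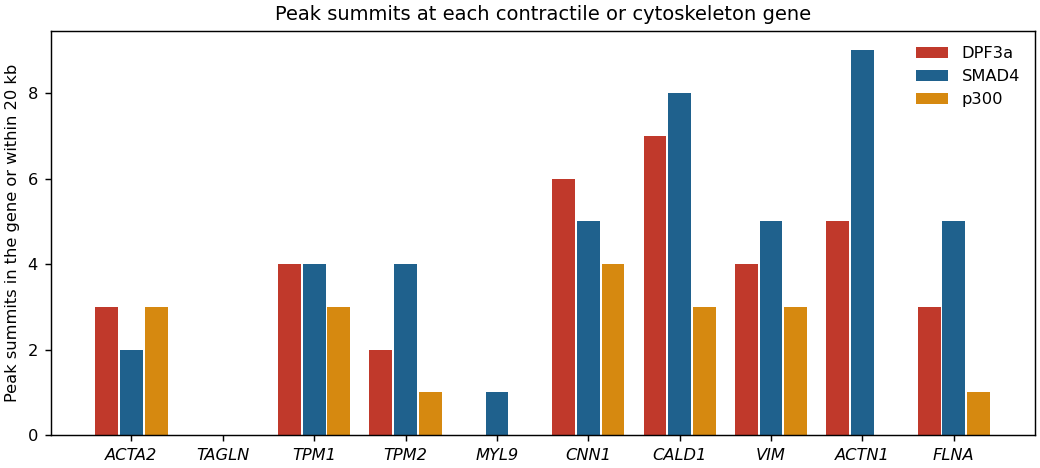
Number of DPF3a, SMAD4 and p300 peak summits in each gene or within 20 kb of it, as bars from 0. CALD1 held 18 summits over the 3 lists, CNN1 15 and ACTN1 14, while MYL9 held 1 and TAGLN none, and no p300 bar stands at ACTN1.

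ACTA2, the smooth muscle actin and a common marker of myofibroblasts, held 3 DPF3a, 2 SMAD4 and 3 p300 summits on chromosome 10. All of its DPF3a and SMAD4 summits lay upstream of the canonical transcript start, inside a longer gene that GENCODE extends to the start of the neighbouring death receptor gene FAS. The strongest site, whose sequence carries a RUNX match starting 26 bp before the DPF3a summit, stood 26.6 kb upstream of the canonical start and 11416 bp from the FAS start. There DPF3a reached 79 reads at the summit (95% exact Poisson interval 62.6 to 98.5) over a background of 4.98, a fold of 13.4 that was higher than 95.6% of the DPF3a list. SMAD4 reached 81 reads (64.3 to 101) and a fold of 13.1 at the same site, higher than 97.5% of its list, and p300 a fold of 5.91 with 17 reads. These SMAD4 and p300 summits lay 28 and 32 bp from the DPF3a summit.

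The other ACTA2 site of all 3 factors lay 37.9 kb upstream of the canonical start and within 164 bp of the FAS start. It gave a DPF3a fold of 6.0, a SMAD4 fold of 5.63 and a p300 fold of 7.31, the last with 36 reads (25.2 to 49.8). This was the strongest p300 summit assigned to ACTA2, although it sits in the promoter of FAS. Inside the canonical ACTA2 transcript a single summit was found, of p300 in intron 3 with 14 reads and a fold of 4.92, and its peak overlapped none of the other lists. No list had a summit in a promoter of ACTA2 itself. The SMAD4 and p300 peaks of the site at FAS did, however, extend over the start of the longer ACTA2 gene.

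MYL9, the regulatory light chain of smooth muscle and non-muscle myosin, held 1 summit in all. It was a SMAD4 summit at position 36556752 of chromosome 20, 5305 bp beyond the end of the gene, with 29 reads (19.4 to 41.7) and a fold of 7.46. Its window held a SMAD box, and no DPF3a or p300 peak overlapped it.

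TAGLN, which encodes the actin-binding protein transgelin and is a classical CArG-driven smooth muscle gene, held no summit of any list in its window of 48095 bp. For DPF3a taken alone, 21.0% of protein-coding genes lacked a summit, and 38.1% of those in the quartile of shortest windows did. A SMAD4 summit was held by 81.3% of all genes and by 64.9% of that quartile. The share of genes lacking a summit of all 3 lists was not computed, and it can only be smaller than the share lacking 1 of them. The nearest peaks beyond the window were close to its edge, a DPF3a summit 20475 bp from TAGLN with a fold of 5.22 and a SMAD4 summit at 20568 bp with a fold of 8.95. For p300 the nearest summit outside any of the windows was 22878 bp from ACTA2, with a fold of 6.05. On the inner side of the edge the outermost summits were those of the CNN1 site, with DPF3a at 18082 bp, SMAD4 at 18087 bp and p300 at 17939 bp.

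TPM1, a tropomyosin that lies along the actin filament, held 4 DPF3a, 4 SMAD4 and 3 p300 summits on chromosome 15. Sites of all 3 factors stood at its canonical start and at an internal start. At the canonical start the DPF3a summit lay 431 bp upstream, the SMAD4 summit 8 bp upstream and the p300 summit 480 bp upstream, with folds of 4.04, 4.99 and 4.06. At the internal start in intron 2, 5512 bp further on for the DPF3a summit, the folds were 4.98, 6.36 and 3.81 in the same order.
The internal start held the most reads of any TPM1 site, 43 of DPF3a, 164 of SMAD4 and 42 of p300, over a local background of 7.84, 24.9 and 10.3 reads. The highest DPF3a and SMAD4 folds at TPM1 were found elsewhere, at a site 17543 bp beyond the gene end that DPF3a and SMAD4 shared, with folds of 6.84 and 7.50. The DPF3a and SMAD4 summits were 13 bp apart there, beside a TEAD and a SMAD box match.

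TPM2, the tropomyosin enriched in smooth muscle and slow skeletal muscle, held 2 DPF3a, 4 SMAD4 and 1 p300 summits on chromosome 9. Its strongest DPF3a summit lay in intron 2, 1063 bp from the canonical start, with 41 reads (29.4 to 55.6) and a fold of 10.7, higher than 86.1% of the list. The AP-1 match printed for this site began 7 bp after the summit. SMAD4 shared the site with a fold of 3.74, which was above only 5.99% of the SMAD4 list. The SMAD4 summit with a CArG box stood 997 bp upstream of the canonical start with a fold of 4.84, and neither DPF3a nor p300 had a peak overlapping it. The strongest SMAD4 summit of the window, with a fold of 7.32, and its single p300 summit, with a fold of 3.99, lay 24.8 and 24.9 kb from the canonical start in the promoter of the exchange factor gene ARHGEF39, where the p300 summit also had a CArG match 3 bp before it.

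CNN1, calponin, an actin-binding protein specific to smooth muscle, held 6 DPF3a, 5 SMAD4 and 4 p300 summits in a window of 51557 bp on chromosome 19. At 11.6 DPF3a summits per 100 kb it was denser than 99.2% of protein-coding genes, and at 7.76 p300 summits per 100 kb denser than 99.2% as well. Only 3 of its 15 summits had the CNN1 start as the nearest canonical start. The SMAD4 and p300 summits of the window included none in a CNN1 promoter, while starts of ECSIT, ELOF1 and ZNF627 held DPF3a, SMAD4 and p300 peaks, with folds of at most 8.89.
The strongest site of the group for DPF3a stood at position 11568405, 18082 bp beyond the end of CNN1 and 9175 bp from the ELOF1 start. It had 104 DPF3a reads (85.0 to 126) and a fold of 14.2, higher than 97.2% of the list, with SMAD4 at a fold of 10.8 and 75 reads and p300 at 5.96 and 48 reads. The DPF3a and SMAD4 summits were 5 bp apart, and the sequence shown above has a SMAD box starting 10 bp, an AP-1 match 23 bp and a RUNX match 65 bp after the DPF3a summit. Inside CNN1 itself DPF3a alone had summits, at 1998 and 7261 bp from the canonical start with folds of 6.47 and 5.36, both in promoters of shorter CNN1 transcripts and overlapped by no SMAD4 or p300 peak.

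CALD1, caldesmon, which binds actin and inhibits the myosin motor, held the most summits, 7 of DPF3a, 8 of SMAD4 and 3 of p300, in the longest window of the group (266478 bp on chromosome 7). Its density of 2.63 DPF3a summits per 100 kb was close to the median of 2.36 over all genes. Of its 7 DPF3a peaks 6 were shared with SMAD4 and 3 with p300. At the canonical start DPF3a and SMAD4 had summits 144 and 119 bp upstream, with folds of 7.08 and 7.97, and no p300 peak.
The first CALD1 site of all 3 factors lay 37.1 kb upstream of the canonical start and 1754 bp outside the gene, with a DPF3a fold of 8.11, a SMAD4 fold of 6.87 and a p300 fold of 5.29. It had 3 TEAD matches in the window around the DPF3a summit. The next, in intron 3 at the internal start about 112 kb downstream of the canonical one, had the 3 summits within 5 bp of each other and folds of 4.87, 7.46 and 4.60. The one with the highest folds had its DPF3a summit 15922 bp beyond the gene end, in the promoter of AGBL3. DPF3a reached 8.96 there, SMAD4 10.3 and p300 9.15, the last higher than 99.3% of the p300 list. The SMAD4 and p300 summits lay 237 and 289 bp from the AGBL3 start, outside the promoter as defined below.

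ACTN1, α-actinin, which bundles actin filaments in stress fibres and adhesions, held 5 DPF3a and 9 SMAD4 summits on chromosome 14 but none of p300, although its window of 145313 bp was in the longest quartile, where 78.3% of all genes held a p300 summit. The strongest SMAD4 summits lay far inside intron 1. At position 68951248, 28.1 kb from the canonical start, SMAD4 had 118 reads (97.7 to 141) and a fold of 13.3, higher than 97.8% of its list, and DPF3a had a fold of 7.76 with 24 reads. At position 68940174 SMAD4 had 203 reads (176 to 233), more than at any other SMAD4 summit of the 10 genes, and a fold of 11.6 over a local background of 16.6 reads. DPF3a reached a fold of 7.38 at that site and its highest ACTN1 fold, 8.01, at the neighbouring one printed above. In the promoter of the canonical start DPF3a had a summit 475 bp upstream with a fold of 5.0.

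FLNA, filamin A, which crosslinks actin filaments into networks, held 3 DPF3a, 5 SMAD4 and 1 p300 summits on the X chromosome, all of them with low folds. The DPF3a folds were between 4.15 and 5.33, the SMAD4 folds between 2.34 and 5.49, and the p300 fold was 3.98. The highest fold of each list lay at 1 place about 1 kb beyond the gene end. The SMAD4 summit with a CArG box stood 98 bp upstream of the canonical start, with 56 reads over a background of 23.4 and a fold of 2.34, lower than all but 0.123% of the SMAD4 list. Local background was high across FLNA for SMAD4, at 23.4 to 26.9 reads for the 3 summits in the gene or its promoter, against a median of 5.16 over the list. By −log10 q the 5 SMAD4 summits ranged from above 8.2% of the list, at the CArG box, to above 64.85%, in intron 2 with 104 reads.

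VIM, vimentin, held 4 DPF3a, 5 SMAD4 and 3 p300 summits in a window of 49353 bp on chromosome 10, which made it denser than 94.6% of protein-coding genes in DPF3a summits, 95.6% in SMAD4 summits and 97.5% in p300 summits. Its site of all 3 factors straddled the end of exon 1. The DPF3a summit stood 276 bp after the start with 76 reads (59.9 to 95.1) and a fold of 7.61, the SMAD4 summit 291 bp after it with 197 reads (170 to 227) and a fold of 5.93, and the p300 summit 573 bp after it with 46 reads and a fold of 4.19. The AP-1 match printed for VIM began 9 bp after the DPF3a summit and 6 bp before the SMAD4 summit. The SMAD4 summit had the second largest number of reads among SMAD4 summits at the 10 genes and a fold above 44.6% of the list, over a background of 32.4 reads.
Beyond the gene end, 10.8 kb from the start, SMAD4 alone had a summit with 78 reads (61.7 to 97.4) and a fold of 5.1, above 30.2% of its list by fold and 66.2% by −log10 q. The remaining VIM summits had folds below 4.5. DPF3a and SMAD4 both had summits about 12 and 13 kb upstream, with DPF3a folds of 4.34 and 3.56 and SMAD4 folds of 4.05 and 3.43. DPF3a alone had a summit 5851 bp upstream with a fold of 4.39, and SMAD4 alone one in intron 2 with a fold of 2.3. p300 had summits in coding exons 2 and 7 with folds of 3.63 in each.

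**Figure D2:**
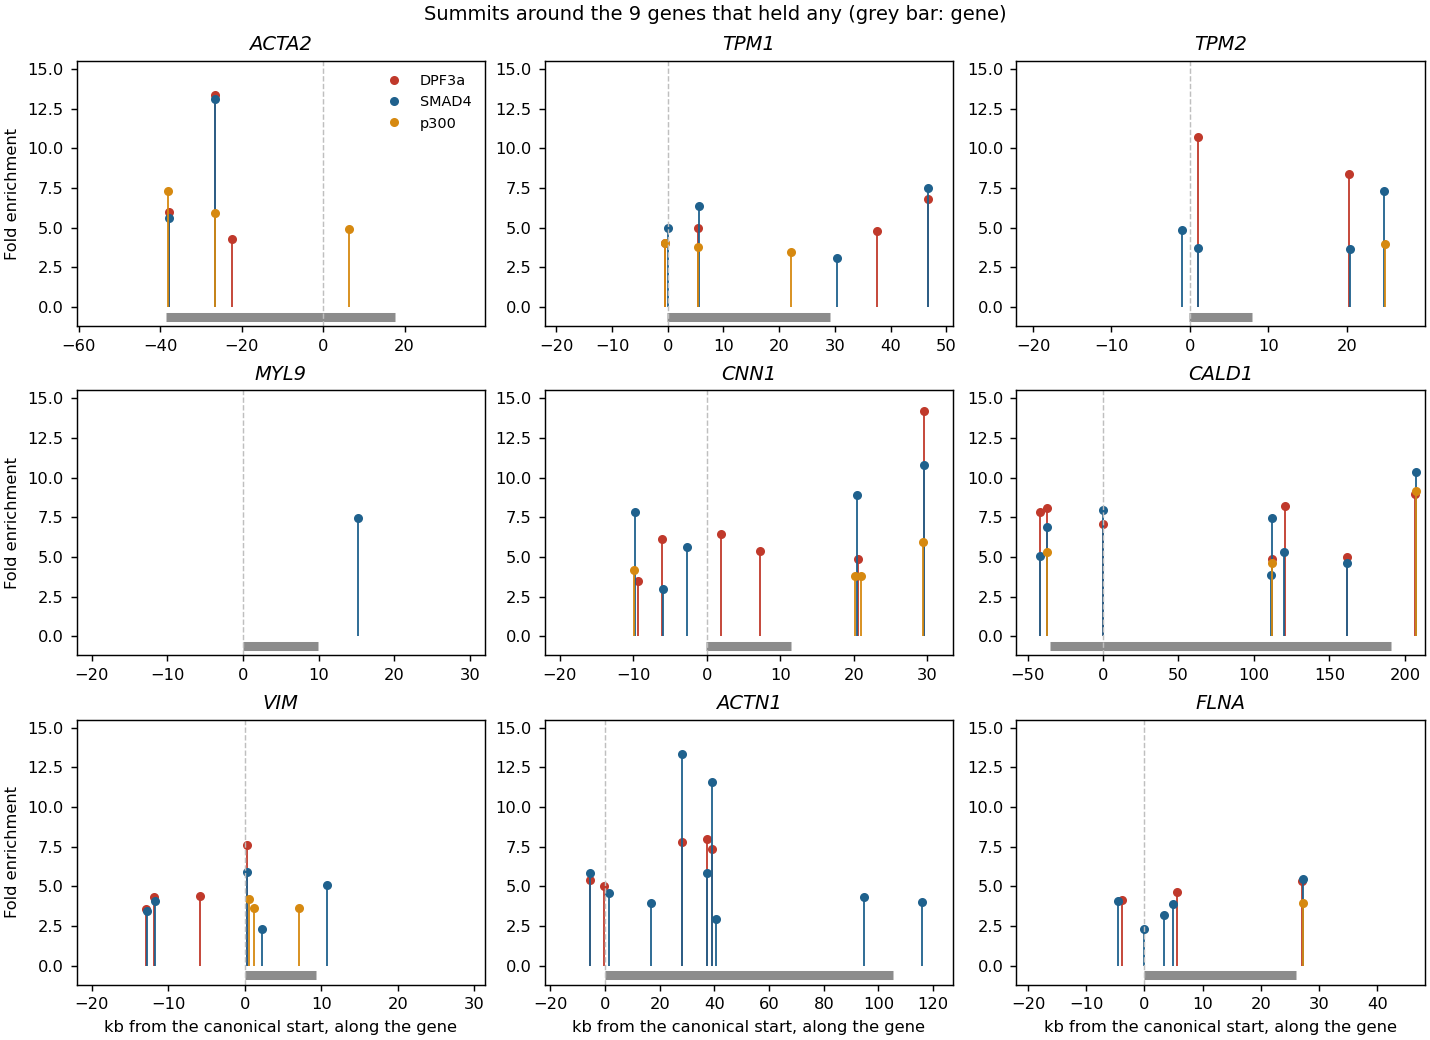
Position of every summit relative to the canonical transcript start (x axis, kb along the direction of the gene, dashed line at the start) and its fold enrichment (y axis) for the 9 genes that held any, with the gene as a grey bar. The highest points stand away from the starts at ACTA2 (DPF3a fold 13.4), CNN1 (14.2) and ACTN1 (SMAD4 fold 13.3), and at the start at VIM (DPF3a fold 7.61). Heights of different factors are not on a common scale.

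A peak was called shared when it overlapped a peak of another list by at least 0.5 of the length of both. Of the 34 DPF3a peaks at these genes 23 were shared with SMAD4, 10 with p300 and 9 with both. The share with SMAD4 was 67.7% (95% Wilson interval 50.8 to 80.9), against 59.3% over the whole DPF3a list and 61.2% of DPF3a peaks in the window of any protein-coding gene. The share with p300 was 29.4% (16.8 to 46.2), against 16.6% and 19.4%. Split by position, 6 of 14 promoter peaks and 4 of 20 other DPF3a peaks were shared with p300, or 42.9% and 20%, against 43.3% and 9.81% over the list.

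Read from SMAD4, fewer peaks were shared with DPF3a than over the list, within counting error. Of 43 SMAD4 peaks 23 were shared with DPF3a, 53.5% (38.9 to 67.5) against 65.9% over the list and 64.1% near any protein-coding gene. There were 19 SMAD4 peaks shared with neither other list, 44.2% (30.4 to 58.9) against 29.3% and 30.1%. Of the 18 p300 peaks 10 were shared with DPF3a and 8 with SMAD4. When peaks that touched by at least 1 bp were merged, the 10 genes held 51 sites, of which 12 carried all 3 factors, 17 DPF3a and SMAD4, 13 SMAD4 alone, 5 DPF3a alone, 3 p300 alone and 1 SMAD4 and p300. SMAD4 alone made up 25.5% of these sites (15.6 to 38.9) against 14.0% of all merged sites of the lists. DPF3a alone made up 9.80% (4.26 to 21.0) against 23.6%. All merged sites include those far from genes, and the shares near protein-coding genes were not computed. Of the sites with SMAD4 alone ACTN1 held 4, FLNA 2 and VIM 2, and TPM1, TPM2, CNN1, CALD1 and MYL9 held 1 each.

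At gene level, 7 of the 10 genes had a site shared by DPF3a and SMAD4, against 69.1% of protein-coding genes, and 5 had a site of all 3 factors, against 41.4%. ACTA2 and TPM1 had 2 sites of all 3 factors each, CALD1 had 3, and CNN1 and VIM had 1 each. TAGLN, MYL9, TPM2, ACTN1 and FLNA had none. These 9 sites were placed by their DPF3a summit. Of them 4 lay in a promoter of the gene itself (both at TPM1, that of VIM and the internal one of CALD1). A promoter of a neighbour held 2 (FAS and AGBL3), and 3 lay in no promoter. At the 23 sites that DPF3a shared with SMAD4 the summits were a median of 34 bp apart, with 14 of them within 50 bp, against a median of 49 bp over the 30567 shared sites of the list.

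**Figure D3:**
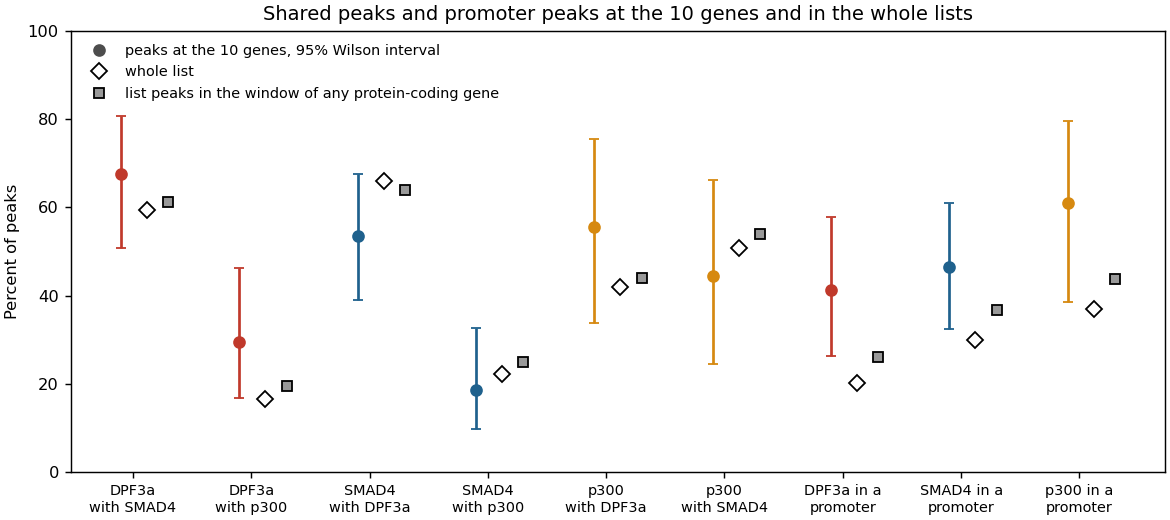
Percent of peaks shared with another list, or in a promoter, for the peaks at the 10 genes (coloured points, bars are 95% Wilson intervals), the whole list (diamonds) and list peaks in the window of any protein-coding gene (squares). The promoter share of DPF3a peaks was 41.2% at the 10 genes, 20.1% over the list and 26.0% near protein-coding genes.

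A promoter was taken as 1000 bp upstream to 100 bp downstream of the start of any GENCODE transcript. Of the summits at these genes 14 of 34 DPF3a, 20 of 43 SMAD4 and 11 of 18 p300 summits lay in one, which is 41.2%, 46.5% and 61.1%, against 26.0%, 36.7% and 43.8% of the peaks in windows of all protein-coding genes. The interval for DPF3a (26.4 to 57.8) lay just above that background and those for SMAD4 (32.5 to 61.1) and p300 (38.6 to 79.7) included it. In each list 6 of these promoter summits were in promoters of other genes only. A promoter of the gene itself held a DPF3a summit at 5 of the 10 genes (41.7% of all protein-coding genes), a SMAD4 summit at 6 (57.2%) and a p300 summit at 3 (32.9%). TPM1, CALD1 and VIM had all 3 factors in their own promoters, and CNN1 had DPF3a alone. TPM2 and FLNA had SMAD4 alone, and ACTN1 had DPF3a and SMAD4. Starts inside a gene count here. The SMAD4 promoter summits of ACTN1 lay 1.34 to 94.8 kb downstream of its canonical start, and the DPF3a ones of CNN1 were also at internal starts. Such starts can be many, since ACTN1, TPM1 and CALD1 have 47, 39 and 24 annotated transcripts.

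The median fold at these genes was lower than near other genes in each list. DPF3a had a median fold of 5.71 against 6.45 for peaks near any protein-coding gene, SMAD4 5.1 against 6.36 and p300 4.13 against 4.89. Median heights were not lower, at 29.5 against 25 reads, 51 against 43 and 29.5 against 24, and the local background was higher, at 4.10 against 2.94, 7.88 against 5.64 and 6.55 against 4.14 reads. The part of local background in the low folds was not tested. Below the 10% point of their list by fold were 7 of 34 DPF3a summits, 15 of 43 SMAD4 summits and 3 of 18 p300 summits. Above the 90% point were 2 DPF3a summits, at ACTA2 and CNN1, 4 SMAD4 summits, at ACTA2, CNN1 and ACTN1, and 2 p300 summits, at ACTA2 and CALD1. Only those at ACTN1 had the gene's own canonical start as the nearest. For those at ACTA2, CNN1 and CALD1 the nearest canonical starts were of FAS, ELOF1 and AGBL3.

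**Figure D4:**
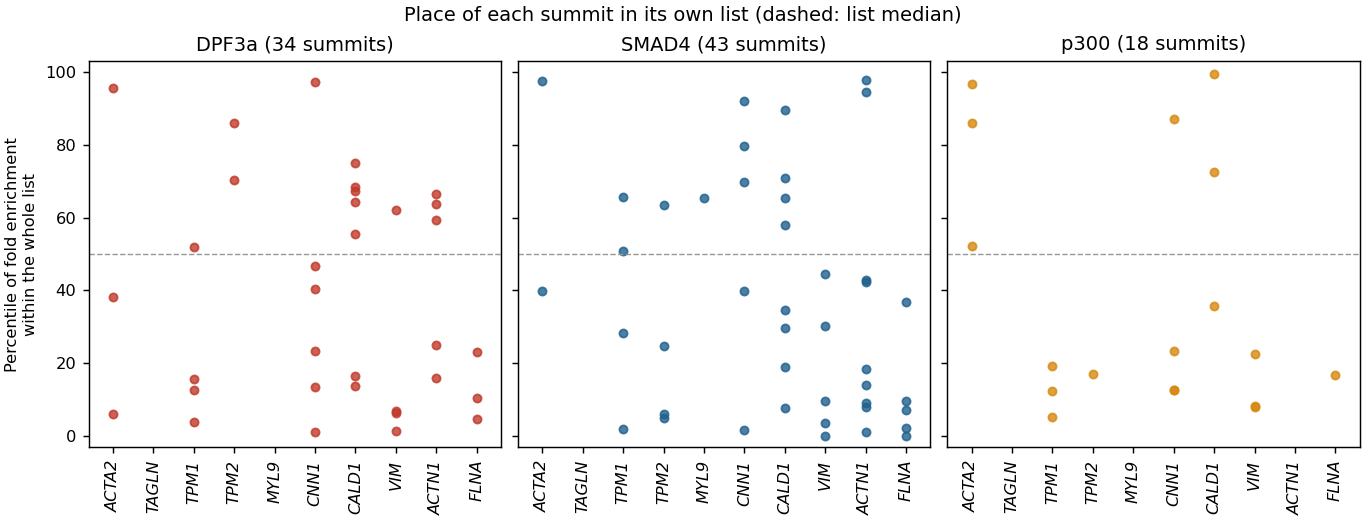
Place of each summit's fold enrichment within its own list, as a percentile (y axis), by gene (x axis), with the list median dashed. DPF3a summits above the median numbered 14 of 34, SMAD4 summits 14 of 43 and p300 summits 6 of 18, and all FLNA and VIM points of SMAD4 lie below it.

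Exact matches on both strands were counted within 75 bp of each summit, for AP-1 (TGAGTCA or TGACTCA), TEAD (CATTCC), RUNX (TGTGGT), the SMAD box (CAGACA), the GC-rich SMAD motif (GGCGCC), the GC box (GGGCGG), the ETS motif (CCGGAAGT), the SMAD palindrome (GTCTAGAC) and the CArG box. GGCGCC and the GC box can share bases. An AP-1 match was found at 9 of 34 DPF3a summits, at TPM2, CNN1, CALD1, VIM, ACTN1 and FLNA, which is 26.5% (14.6 to 43.1) against 29.5% over the list and 2.28% in windows of the same length centred 500 bp away. SMAD4 summits had it in 10 of 43 cases, 23.3% against 20.9%, at the same 6 genes, and p300 summits in 0 of 18, against 5.55%. Since 0 of 18 allows a share of up to 17.6% at the Wilson bound, a lower share than in the list was not detectable at this number. ACTA2, TPM1 and MYL9 had no AP-1 match at any summit.

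The CArG box was rare, at 0 of 34 DPF3a, 2 of 43 SMAD4 and 1 of 18 p300 summits, against 0.594%, 0.580% and 0.334% over the lists and 0.801%, 0.759% and 0.876% in the flanking windows. The matches were those at TPM2 and FLNA described above. TEAD matches were found at 8 of 34 DPF3a summits (23.5% against 17.2%) and at 7 of 43 SMAD4 summits (16.3% against 13.5%), SMAD boxes at 7 of 34 (20.6% against 11.5%) and 8 of 43 (18.6% against 14.5%), and the SMAD palindrome at none. Over the 9 motifs and the 3 lists, the list's share lay inside the Wilson interval of the genes' share with few exceptions. These were the CArG box at SMAD4 and p300 summits and the GC box at DPF3a summits, which 8 of 34 held, 23.5% (12.4 to 40.0) against 11.2%. The CArG exceptions rest on only 2 SMAD4 summits and 1 p300 summit, and that p300 summit lies in the promoter of ARHGEF39. The intervals were not adjusted for the number of motifs and lists. Median GC content within 75 bp of the summits was higher at these genes in each list. It was 53.3% against 47.7% over the list for DPF3a, 57.6% against 53.0% for SMAD4 and 64.2% against 57.6% for p300. Its relation to the promoter share was not tested.

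**Figure D5:**
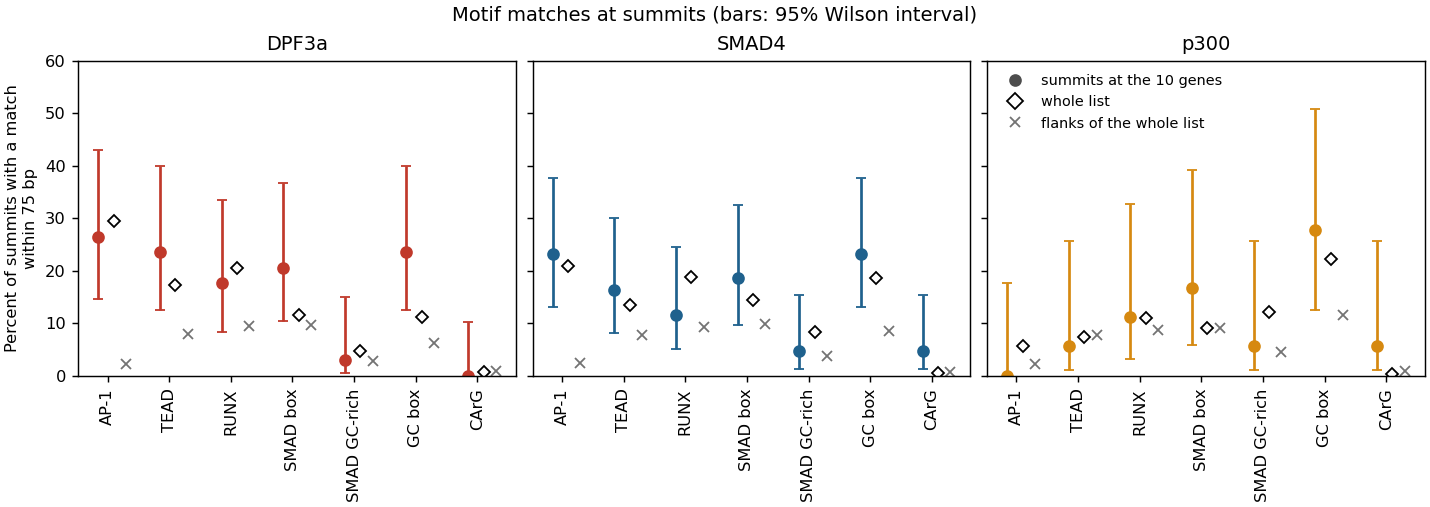
Percent of summits with an exact motif match within 75 bp, for the 10 genes (coloured points, bars are 95% Wilson intervals), the whole list (diamonds) and windows 500 bp away from the list's summits (crosses). For AP-1 the genes' share was 26.5% and the list's 29.5% at DPF3a summits, and at p300 summits the genes had no match.

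RefSeq promoters (build GRCh38.p14, 250 bases before to 50 after a start) were matched by symbol for 8 of the 10 genes, with 16 entries, and TAGLN and MYL9 had no entry. An exact CArG box was present in 1.29% of the 35116 promoters of the table and in 2 of these 16. These were that of FLNA, where it began at position -94 relative to the start, and 1 of ACTN1, where it began at -171. Variants with a G or C in the core were not counted. The ACTA2 promoter at the canonical start holds such a variant, ccctatatgg, so a lack of matches does not mean that no CArG-like element is present. The FLNA promoter held the SMAD4 summit given above. The ACTN1 promoter held no summit of any list, although a SMAD4 peak overlapped it. Among promoters without a CArG box, those of TPM1 and CALD1 held DPF3a and SMAD4 summits. They include a CALD1 promoter at chr7:134711249-134711548, which lies upstream of the GENCODE gene and beyond its window. Summits there are not in the CALD1 counts above.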

How the data were processed

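ChIP-seq of HA-tagged DPF3a, SMAD4 and p300 in 786-O cells was analysed from 3 peak lists, 1 per factor. Per the labels each list was made by the authors from both libraries of a factor, and how these were combined is not given in the sources used here. The authors trimmed adapters with cutadapt, aligned reads to hg38 with Bowtie2 2.3.5.1, removed mitochondrial reads, reads of MAPQ under 30 and duplicates (Picard), and called peaks with MACS2 2.2.5. As deposited, the score is for nearly all peaks the whole-number part of 10 times −log10 q, and the authors kept scores over 50, the lowest in the files being 51. As deposited, fold enrichment divides the summit pileup plus 1 by the local background plus 1 (MACS2's ratio). The −log10 p and −log10 q that the authors deposited compare that pileup with a Poisson distribution. No control library is named for the calls.

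From fold and −log10 p the number of whole reads at the summit and the background were recovered for every peak, with an error in −log10 p of at most 0.00086. Genes, transcripts and exons came from GENCODE release 44 on hg38, and no peak lay beyond a chromosome end. Sharing was computed with numpy 2.4.6 and pandas 2.3.3, and gave the same calls as bedtools 2.31.1 in 12 of 12 combinations of lists. Intervals are exact Poisson for reads and Wilson for shares at 95% (scipy 1.17.1), sequences were read with pysam 0.24.0, and the recovery of reads, the sharing rule and the motif search were tested on simulated data. No test between groups was made.

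The genes and the further cytoskeleton list were chosen with earlier results of these data known, and the comparison with peaks near all protein-coding genes was added after the members' values were seen. All 10 genes are named, with each gene's highest peak per list and every site of all 3 factors. Of the further list, close relatives of the 10 genes and the 3 genes with most summits per list were to be named, and not all of these relatives are reported here. Alternatives were the peak threshold, the window, lists of equal size, the sharing rule, the promoter and the motif window.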

Additional observations from a re-analysis of the deposited data

How the results depend on the processing

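No paired analysis was possible because both replicates of a factor went into a single list, and for the same reason no library could be left out. Of 90 recomputed values that answer a comparison, 54 stayed within 1.5 times the reported one and 36 did not, and none of them has a test. The alternatives that lowered counts keep fewer peaks by construction. With scores over 100 the 10 genes held 18 DPF3a and 4 p300 summits, 4 genes had a p300 summit (24.4% of all protein-coding genes), 14 DPF3a peaks were shared with SMAD4, 4 with p300, and 4 sites had all 3 factors. With scores over 200 there were 12 DPF3a summits, 20 of SMAD4 and 1 of p300, the latter at 1 gene (3.04% of all genes). In lists of equal size (20380 peaks) there were 12 DPF3a and 19 SMAD4 summits, with 7 DPF3a peaks shared with SMAD4, 5 with p300 and 5 sites of all 3. Within the genes alone there were 16 DPF3a, 21 SMAD4 and 9 p300 summits, 4 genes with p300 (42.9% of all genes), 11 and 5 shared DPF3a peaks (with SMAD4, with p300) and 5 sites of all 3. With 5000 bp on either side there were 21 DPF3a summits, 13 of them shared with SMAD4. With 50000 bp there were 60, 73 and 30 summits, and 45 DPF3a peaks shared with SMAD4. Counting only summits whose nearest canonical start is that of the gene left 20 DPF3a, 26 SMAD4 and 9 p300 summits, 13 and 5 shared DPF3a peaks and 4 sites of all 3. With motifs searched 150 bp on either side, 4 SMAD4 summits had a CArG box and 1 p300 summit an AP-1 match.

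The number of genes with a DPF3a summit was between 6 and 10, and that with a SMAD4 summit between 7 and 10, under all 8 alternatives. Over all protein-coding genes the same shares ran from 38.2% to 86.2% for DPF3a and from 59.5% to 86.9% for SMAD4, and the 6 genes with a DPF3a summit at scores over 200 stood beside 38.2%. Of 69 further values, including the motifs other than AP-1 and CArG, 21 moved. The SMAD4 summit with the highest fold (13.3, ACTN1) was not the one with the highest −log10 q, which had a fold of 11.6 at the same gene. With at most 43 summits a list, shares have wide intervals, and weaker binding than a score of 50 was not detectable.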

Other observations

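A further list of 48 contractile and cytoskeleton genes was counted in the same way. Of these 45 held a DPF3a summit, 46 a SMAD4 summit and 36 a p300 summit, which 79.0%, 81.3% and 64.7% of all protein-coding genes did. A site of all 3 factors was held by 24, which 41.4% of all genes did. The list was chosen with earlier results of these data known. Its windows were longer, with a median of 76738 bp against 67471 bp, and no share matched for window length was computed. The median gene of that list had 4.80 DPF3a summits per 100 kb of window, 4.75 SMAD4 summits and 1.27 p300 summits, against 2.36, 2.47 and 1.19 over all protein-coding genes. The genes with most summits had long windows. PALLD, an actin-bundling protein of stress fibres, held 29 DPF3a and 27 SMAD4 summits in 471 kb. LPP, an adhesion protein, held 28 DPF3a, 16 SMAD4 and 8 p300 summits in 777 kb. SVIL, supervillin, held 25, 16 and 7 in 320 kb, and MYLK, the kinase that phosphorylates the myosin light chain, held 22 SMAD4 summits in 314 kb. MYH11, the smooth muscle myosin heavy chain, and MYOCD, the muscle coactivator of SRF, held no summit of any list in windows of 194 kb and 143 kb, and both were picked out after their values were seen.

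Among 16 close relatives of the 10 genes, 15 held a DPF3a summit, 16 a SMAD4 summit and 12 a p300 summit, beside the same shares over all genes of 79.0%, 81.3% and 64.7%. A site of all 3 factors was held by 7 of the 16, near the 41.4% over all genes. ACTB, the cytoplasmic β-actin, held 8 DPF3a, 11 SMAD4 and 2 p300 summits, and ACTG2, the enteric smooth muscle actin, held 6, 5 and 3. The other cytoplasmic actin, ACTG1, held 1 DPF3a and 3 SMAD4 summits, and of the striated muscle actins ACTC1 held a single SMAD4 summit and ACTA1 2 DPF3a and 1 SMAD4 summits, with no p300 summit at any of these. ACTN4, the relative of ACTN1 found in non-muscle cells, held 13, 11 and 1 summits. TAGLN2 held 4, 4 and 1 and TAGLN3 4, 2 and 3, where TAGLN held none. DES, the muscle counterpart of VIM, held 1 DPF3a and 1 SMAD4 summit.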
